A study of Mus musculus with 4 samples.

Results

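The RNA of sorted regulatory T (Treg) cells held transcripts typical of red pulp macrophages, the phagocytes of the splenic red pulp, and 39 such genes were followed across the 4 libraries of the experiment. The 39 genes were given as a list of macrophage symbols, all 39 were found among the 47729 genes listed, and all 39 passed the filter on low counts, as did 12536 genes in all. The genes were chosen by their counts in these same libraries, of which WT replicate 1 and TfR1 cko replicate 2 held most of this RNA. The levels and the ratios between libraries are therefore descriptions and carry no test. Passing the filter says little by itself, because a gene that was high in only those libraries passed it.

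The cells came from C57BL/6 mice in which Cre and YFP are made from the *Foxp3* locus. The genotype of the WT libraries is Tfrc +/+ Foxp3 YFP-Cre/+ and that of the TfR1 cko libraries is Tfrc fl/fl Foxp3 YFP-Cre/+, with 2 libraries of each, labelled WT1 and WT2, HE1 and HE2. All 4 libraries carry the Cre allele, which in these heterozygous females is active in only a part of the Treg cells because of random X inactivation, and sorting for YFP and CD25 kept that part. A legend of the study names the replicates biological without stating that each came from a separate animal or sort. The p-values therefore measure the spread between these libraries, which may be technical. Labels give the spleen as the tissue, while a legend of the study gives spleens and lymph nodes.

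Red pulp macrophages engulf aged red blood cells, break down their heme and return the iron to plasma. Heme oxygenase opens the heme ring, and a biliverdin reductase converts the product to bilirubin. Ferroportin, encoded by *Slc40a1*, is the iron exporter of the cell surface. Spi-C, a relative of the transcription factor PU.1, is needed for these macrophages to form, and heme induces it. Complement C1q, the scavenger receptors, the Fc receptors and the lysosomal proteases are shared with many other macrophages.

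*Slc40a1* is a member whose transcript carries an iron-responsive element, a hairpin in the 5' untranslated region that iron regulatory proteins bind to hold back translation. A search of annotated 5' untranslated regions (NCBIM37, GENCODE vM1) for the loop CAGTGN on a stem of 5 pairs with a C before it found the element in 33 of 19854 genes (0.166%) and in 1 of the 39 members. The elements of *Slc40a1* (chr1:45982316-45982332, minus strand) and of the ferritin genes *Fth1* (chr19:10057228-10057244, plus strand) and *Ftl1* (chr7:52715155-52715171, minus strand) are shown 5' to 3' because the same kind of element regulates the exporter and the iron store, with the loop in capitals.
Slc40a1: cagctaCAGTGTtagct
Fth1: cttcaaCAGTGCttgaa
Ftl1: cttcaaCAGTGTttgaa

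The members were also searched for GAGGAA, the core of the site that PU.1 and Spi-C bind. The search covered both strands of the RefSeq promoter windows (GRCm38.p6, 250 bases before to 50 after a start site). A window was found for 28 of the 39 members, and 19 of these 28 (67.9%) held the motif, as did 31.3% of 27025 genes. Of the iron-recycling genes only *Slc11a1* held it, while *Blvrb*, *Spic* and *Cd163* had a window without it. The 11 members with no window were *Slc40a1*, *Hmox1*, *Itgad*, *Vcam1*, *Csf1r*, *Emr1*, *Sirpa*, *Tlr4*, *Tyrobp*, *C1qa* and *Ctsb*. The longer site GAGGAAGT, which contains GAGGAA, was in 2 of the 28 (7.1%) and in 3.7% of all genes. TGACTCA, the AP-1 site, was in 1 (3.6%) against 5.9%, and CACGTG, the E-box of lysosomal gene regulators, in 2 (7.1%) against 8.1%. Stretches of 30 bases around the motif are shown for members of the complement, iron and Fc receptor groups and for *Mrc1*, 5' to 3' on the gene's own strand, with the motif or its reverse complement in capitals. They lie at chr4:136886213-136886242 (minus strand, *C1qb*), chr4:136893090-136893119 (minus strand, *C1qc*), chr1:74375039-74375068 (plus strand, *Slc11a1*), chr1:171018892-171018921 (plus strand, *Fcgr4*) and chr2:14229367-14229396 (plus strand, *Mrc1*). A match in a window is a description of its letters and shows no binding.
C1qb: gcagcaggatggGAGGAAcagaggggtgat
C1qc: gacggcagacacTTCCTCattttggcacac
Slc11a1: gggtatccaggaGAGGAAcgaaggtcaaaa
Fcgr4: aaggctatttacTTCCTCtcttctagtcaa
Mrc1: aaaagggacagcTTCCTCtgtcctcctttt

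The libraries held 10841939 to 17278448 counts, and CPM below are counts of a gene per 1000000 counts, scaled by TMM factors. *Tfrc*, the targeted gene, which encodes the transferrin receptor TfR1, had 50.8 and 54.1 CPM in the WT and 56.1 and 48.3 CPM in the TfR1 cko replicates (log2 fold change -0.01, SE 0.16, adjusted p = 0.999). A count over the whole gene cannot show the loss of single exons, so genotypes are those of the labels. *Foxp3*, the defining factor of Treg cells, had 114 to 194 CPM, and 8 Treg and T cell markers summed to 5439 and 5238 CPM in the libraries labelled WT and to 4546 and 4104 CPM in those labelled TfR1 cko. The labelled cell type was thus present in each library, and the macrophage genes were read beside its own. *Mki67*, a marker of dividing cells named here after its values were seen, had 90.5 and 28.7 CPM in WT replicates 1 and 2, against 34.7 and 82.0 CPM in TfR1 cko replicates 1 and 2. It was thus higher in the libraries that held most RNA of the macrophage genes, and its part in the macrophage values was not tested.

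All 39 members followed the same order of libraries. TfR1 cko replicate 2 was highest and WT replicate 1 next, and both (the upper pair below) were above WT replicate 2 and TfR1 cko replicate 1 (the lower pair). The full order held for 39 of 39 members and for 10.9% of all genes tested. The position of the upper and lower pair held for 39 of 39 members and for 22.9% of all genes tested. The members made up 0.349% and 0.151% of all counts in WT replicates 1 and 2, and 0.140% and 0.907% in TfR1 cko replicates 1 and 2. *Ctsb* and *Ctsd*, proteases that most cells make, accounted for most of the member counts in the lower pair. Without both genes the shares were 0.183%, 0.0190%, 0.0186% and 0.601%. In bulk RNA, more macrophages, more RNA per macrophage and RNA of these genes from the sorted cells themselves cannot be told apart.

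**Figure D1:**
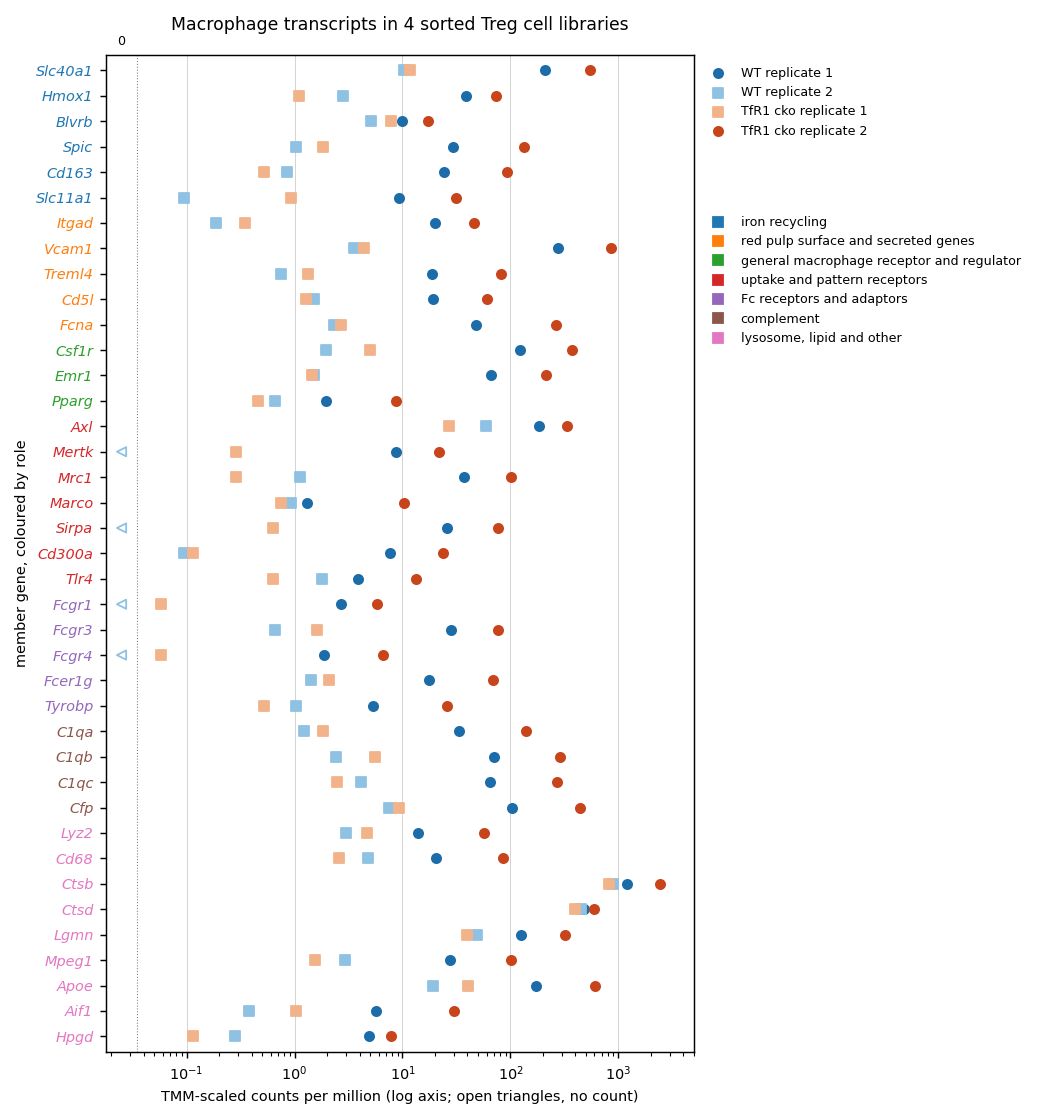
TMM-scaled CPM of the 39 macrophage genes (log axis) in the 4 sorted Treg cell libraries, 1 point per library, with gene names coloured by role and open triangles for genes with no count. The dark circles of TfR1 cko replicate 2 and WT replicate 1 lie to the right of the pale squares of the other libraries in all 39 rows, while the 4 points of Ctsd nearly coincide.

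The median member stood at 26.1 and 1.5 CPM in WT replicates 1 and 2, and at 1.56 and 81.6 CPM in TfR1 cko replicates 1 and 2. All 39 members were above 1 CPM in the upper pair and 25 in each library of the lower pair. In WT replicate 2, 4 members had no count, namely *Mertk*, *Sirpa*, *Fcgr1* and *Fcgr4*, and a count of 0 there allows a level of up to 0.281 CPM (3 counts). The lower pair was thus close to the limit of detection for many of these genes, and 8 members in WT replicate 2 and 4 in TfR1 cko replicate 1 had 3 counts or fewer.

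Among the 6 iron-recycling genes, *Slc40a1* (chromosome 1, 45964915 to 45982439 in NCBIM37), whose element is printed above, was the most abundant per kilobase of exon in each library of the upper pair (61.4 and 162 CPM per kb). Its levels were 208 and 10.3 CPM in WT replicates 1 and 2, and 11.7 and 548 CPM in TfR1 cko replicates 1 and 2. Its ratio within the WT genotype was 20.1 (95% exact binomial interval 16.6 to 24.6) and within TfR1 cko, replicate 2 over replicate 1, 46.8 (40.7 to 54.1). These intervals, like all that follow, cover counting error only. The genotypes overlapped, since each held a high and a low library.

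*Hmox1*, heme oxygenase, had 38.4, 2.81, 1.10 and 74.0 CPM in the same order of libraries. *Spic* (chromosome 10), the red pulp macrophage factor, had 29.5, 1.03, 1.84 and 132 CPM. *Cd163*, the receptor for haptoglobin-hemoglobin complexes, had 24.2, 0.844, 0.519 and 92.3 CPM. All of these were over 10 times higher in the upper than in the lower pair. *Slc11a1*, the phagosomal metal transporter NRAMP1, had 9.25, 0.0937, 0.922 and 31.1 CPM. Its ratio within WT, 98.7, rests on 1 count in WT replicate 2 and has an interval of 17.4 to 3932.

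*Blvrb*, biliverdin reductase B, differed from the other 5 iron-recycling genes. It had 9.99, 5.16, 7.78 and 17.4 CPM, with a ratio of 1.94 (1.40 to 2.71) within WT and 2.23 (1.80 to 2.78) within TfR1 cko. Its order of libraries was that of the other members, but its highest level was only 3.37 times its lowest. Summed over the 6 genes, iron recycling came to 319, 20.2, 23.9 and 895 CPM.

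The surface and secreted genes typical of red pulp macrophages had the widest median ratio of any role within TfR1 cko. *Vcam1*, the integrin ligand by which these cells are often sorted, had 273, 3.56, 4.38 and 849 CPM. *Itgad*, the integrin alpha D chain, had 19.9, 0.188, 0.346 and 45.6 CPM, and its WT ratio of 106 rests on 2 counts in WT replicate 2 (29.1 to 881). *Fcna*, the lectin ficolin A, had 47.6, 2.34, 2.71 and 261 CPM. *Cd5l*, a secreted scavenger protein that keeps macrophages alive, and *Treml4*, a receptor for dead cells, stood at 18.7 to 81.6 CPM in the upper pair and at 0.750 to 1.5 CPM in the lower pair. Over the 5 genes the median ratio was 25.0 within WT and 96.5 within TfR1 cko.

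Of the general macrophage regulators, *Csf1r*, the receptor for the survival factor CSF1, had 124, 1.97, 4.96 and 371 CPM. *Emr1*, the adhesion receptor also called Adgre1 and a standard macrophage marker, had 65.5, 1.5, 1.44 and 213 CPM. *Pparg*, a lipid-sensing nuclear receptor, was lower, also per kilobase of exon, at 1.97, 0.656, 0.461 and 8.69 CPM. The receptors followed the red pulp genes closely, while the WT ratio of *Pparg* was only 2.99.

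The 7 uptake and pattern receptors were less alike. *Mrc1*, the mannose receptor, had the widest ratio of any member within TfR1 cko, with 0.288 CPM in replicate 1 and 102 CPM in replicate 2 (352-fold, 150.5 to 1086). *Sirpa*, which reads the CD47 signal on intact red blood cells, had 26.1 and 76.4 CPM in the upper pair, 0 in WT replicate 2 and 0.634 CPM in TfR1 cko replicate 1, so it was at least 92.9-fold higher in WT replicate 1 than in WT replicate 2. *Axl*, a receptor for phosphatidylserine-bridging ligands on dying cells, had 185 and 337 CPM in the upper pair and kept 59.1 CPM (WT) and 27.2 CPM (TfR1 cko) in the lower pair. *Marco*, a scavenger receptor of marginal zone rather than red pulp macrophages, had 1.31, 0.937, 0.749 and 10.3 CPM. For *Marco* only TfR1 cko replicate 2 stood clearly apart (WT ratio 1.40, 0.596 to 3.44). The other 3, *Mertk*, *Cd300a* and *Tlr4*, had 3.85 to 8.68 CPM in WT replicate 1 and 13.4 to 23.7 CPM in TfR1 cko replicate 2.

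The Fc receptors *Fcgr1*, *Fcgr3* and *Fcgr4* and the signaling adaptors *Fcer1g* and *Tyrobp* summed to 55.7, 3.09, 4.32 and 184 CPM. *Fcgr3* was the highest of the receptors per kilobase of exon in the upper pair, with 28.2, 0.656, 1.61 and 77.3 CPM. The Fc receptor genes resemble each other and *Fcgr2b*, and *Lyz2* resembles *Lyz1*, so how shared reads were assigned bears on their values and is not known here.

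*C1qa*, *C1qb* and *C1qc*, whose products form C1q, lie side by side on chromosome 4 (136436044 to 136454718 in NCBIM37), and *Cfp* encodes properdin. *C1qb* had 71.0, 2.44, 5.53 and 291 CPM. Summed, the 4 genes had 272 and 1135 CPM in the upper pair and 15.3 and 19.1 CPM in the lower pair.

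The lysosome and lipid genes included the member that differed least between libraries. *Apoe*, the lipid carrier, had 171, 19.1, 40.6 and 611 CPM. *Lgmn*, the protease legumain, kept 48.7 and 40.0 CPM in the lower pair, against 125 and 322 CPM. *Ctsb*, cathepsin B, had 1195, 887, 810 and 2403 CPM. *Ctsd*, cathepsin D, had 481, 451, 399 and 596 CPM, the narrowest spread of all 39 members. Of the other 5, *Lyz2*, *Cd68* and *Mpeg1* stood at 1.56 to 4.78 CPM in the lower pair and *Aif1* and *Hpgd* at 0.115 to 1.04 CPM, and all 5 were higher in both libraries of the upper pair. Per kilobase of exon (GENCODE vM1), the levels in TfR1 cko replicate 2 were led by *Ctsb* (507 CPM per kb), *Apoe* (309) and *C1qb* (267), with *Slc40a1* at 162 and *Hmox1* at 34.2.

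Ratios between the 2 libraries of each genotype were set against all genes tested, with a prior count of 2. In WT replicate 1 over WT replicate 2, 35 of the 39 members were more than 2-fold higher, as were 8.12% of all genes tested. In TfR1 cko replicate 2 over replicate 1, 38 members passed 2-fold, against 7.16%. Both ratios passed 2-fold for 35 members and for 3.88% of genes tested (486), and the members that did not were *Blvrb*, *Marco*, *Ctsb* and *Ctsd*. Ranked by the lower of the ratios, 18 members were among the first 50 of the 12536 genes and 26 among the first 100. Since the members were listed for this pattern, these counts only describe it.

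**Figure D2:**
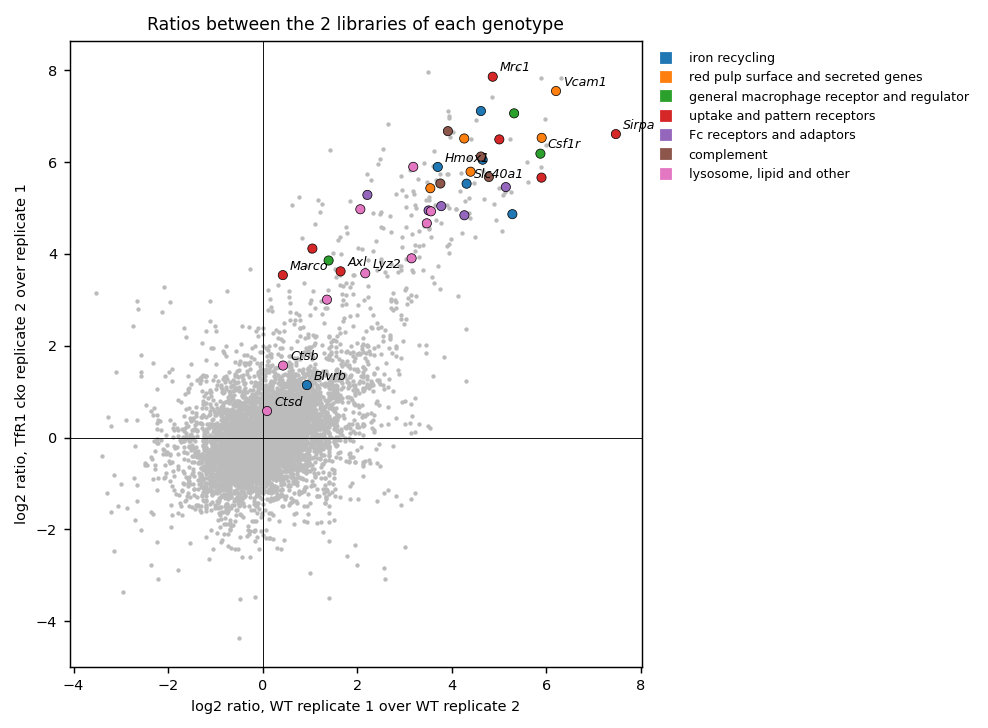
Log2 ratio of TMM-scaled CPM (prior count 2) of WT replicate 1 over WT replicate 2 (x axis) and of TfR1 cko replicate 2 over replicate 1 (y axis), with all genes tested in grey and the 39 members coloured by role. All 39 members lie above 0 on both axes, most of them in the upper right, while Ctsd, Blvrb, Ctsb and Marco lie nearest to the grey cloud on at least 1 axis.

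The libraries that held most of this RNA differed from each other as well. TfR1 cko replicate 2 exceeded WT replicate 1 for all 39 members, by a median of 3.36-fold, from 1.24-fold for *Ctsd* (1.20 to 1.28) to 7.86-fold for *Marco* (4.68 to 14.1). More than 2-fold was reached by 34 members, and by 5.73% of all genes tested. The median log2 ratio over all genes tested was -0.004. The factor was not the same for all genes. *Hmox1* (1.93-fold, 1.73 to 2.15) and *Blvrb* (1.74-fold, 1.39 to 2.18) had the smallest ratios of the iron-recycling genes, *Slc40a1* was intermediate (2.64-fold, 2.52 to 2.76), and *Spic* was highest (4.49-fold, 4.01 to 5.04). The 4 complement genes lay within 4.10 and 4.24-fold, and *Fcna* reached 5.49-fold (5.03 to 6.00). The medians were 3.0 for the 6 iron-recycling genes and 3.49 for the other 33, and the ranges of both sets overlapped. With 1 library on each side the intervals hold counting error alone, and genotype and library cannot be told apart.

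**Figure D3:**
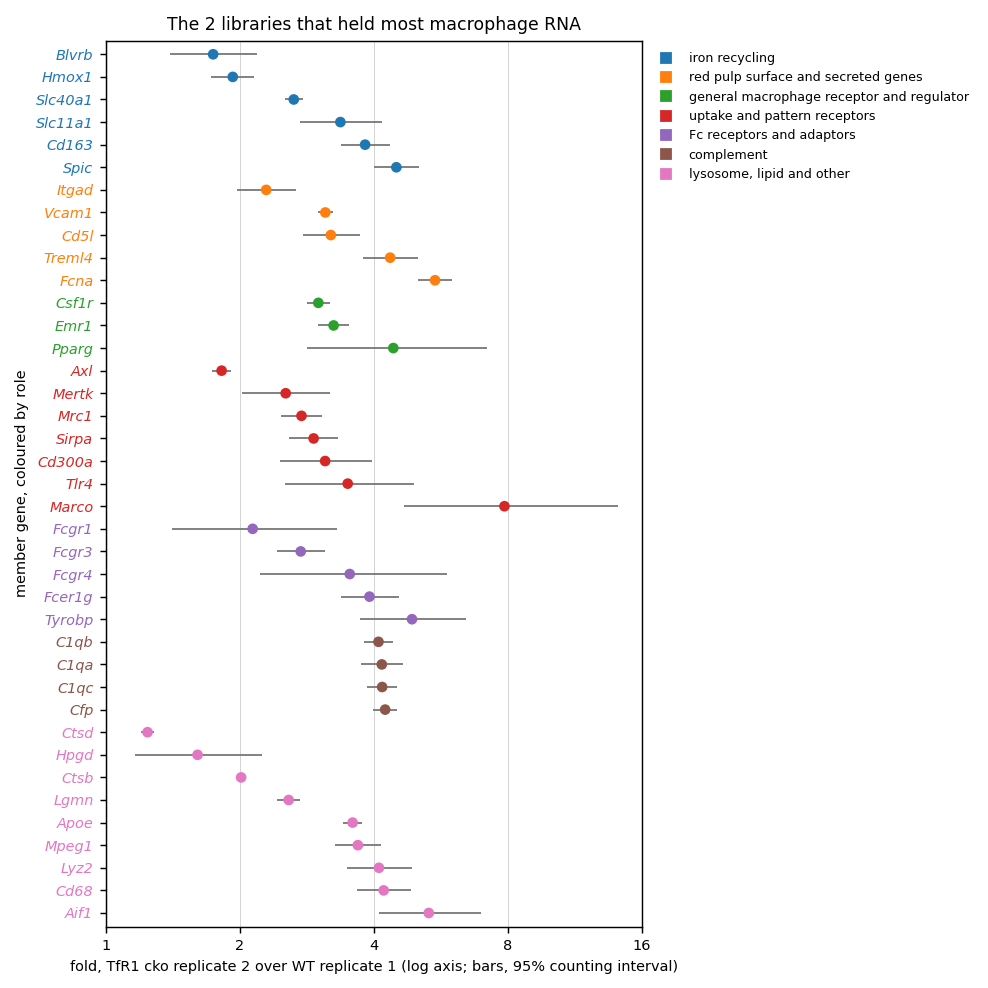
Fold of TfR1 cko replicate 2 over WT replicate 1 for each member (log axis), 1 library against 1, with bars for the 95% counting interval and members grouped and ordered within their role. All 39 points lie above 1, the 4 complement genes line up near 4-fold, and the iron-recycling genes spread from 1.74 to 4.49-fold.

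Between the libraries that held little of it, no common direction was seen. The ratio of TfR1 cko replicate 1 over WT replicate 2 had a median of 1.14 over the 35 members with more than 3 counts in either library, and it was above 1 for 19 of them. *Hmox1* (0.389, 0.207 to 0.715), *Axl* (0.461, 0.408 to 0.520) and *Mrc1* (0.256, 0.0707 to 0.781) were lower in TfR1 cko replicate 1. *Apoe* (2.13, 1.82 to 2.50), *Csf1r* (2.52, 1.55 to 4.27) and *C1qb* (2.27, 1.46 to 3.65) were higher there. Genes of the same role could thus differ in direction, as did *C1qb* and *C1qc* (0.601, 0.385 to 0.936).

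Shares of single members in the summed signal of the members were also compared. Of the member counts other than *Ctsb* and *Ctsd*, *Vcam1* took 14.7% in WT replicate 1 and 14.4% in TfR1 cko replicate 2, *Csf1r* took 6.68% and 6.29%, and *Slc40a1* took 11.2% and 9.28%. Other shares differed more within the upper pair, with 9.98% and 5.70% for *Axl*, 2.57% and 4.43% for *Fcna*, and 0.0707% and 0.174% for *Marco*. In the lower pair, *Axl* and *Lgmn* held more of it than in the upper pair, with 30.6% and 25.2% in WT replicate 2 and 14.7% and 21.7% in TfR1 cko replicate 1, and *Vcam1* held less, with 1.84% and 2.37%. *Apoe* held 9.89% in WT replicate 2 and 22.0% in TfR1 cko replicate 1, against 9.21% and 10.4% in the upper pair.

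Other genes of iron handling did not share the pattern as a group. Of 26 such genes 20 passed the filter on low counts, and 2 of the 20, *Trf* and *Lrp1*, were more than 2-fold higher in both within-genotype ratios. *Trf*, transferrin, had 6.63, 0.0937, 0.519 and 34.9 CPM. *Lrp1*, the receptor for heme-hemopexin complexes, had 8.68, 0.281, 0.461 and 22.6 CPM. *Fth1*, the ferritin heavy chain whose element is printed above, came next with 627, 369, 273 and 576 CPM, and so varied far less than the exporter *Slc40a1*. The smallest ratios were those of *Slc39a14*, a metal importer (7.94, 11.3, 9.74 and 11.1 CPM), and *Ireb2*, iron regulatory protein 2 (21.8, 23.2, 25.9 and 18.5 CPM), for which WT replicate 1 and TfR1 cko replicate 2 were not the highest libraries. In the comparison of genotypes 0 of the 20 were called higher and 0 lower, at an adjusted or an unadjusted p of 0.05. A call at either p also needed a log2 fold change of 0.5 or more in size. Of all genes tested, 0% were called at the adjusted p, and 1.6% higher and 2.48% lower at the unadjusted p. The median log2 fold change of the 20 was 0.10.

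Of 38 other macrophage genes 31 passed the filter, and 11 of these passed 2-fold in both ratios. The largest were *Clec4n*, the lectin Dectin-2 (20.6, 0.281, 1.04 and 76.2 CPM), *Pirb*, an inhibitory receptor (11.7, 0.0937, 0.749 and 42.7 CPM), and *Cd14*, the co-receptor for lipopolysaccharide (33.2, 1.31, 0.288 and 52.9 CPM). The smallest were *Lamp1* (29.8, 56.8, 74.9 and 57.4 CPM) and *Ncf1* (19.0, 11.6, 22.1 and 16.3 CPM). *Lamp1*, a lysosomal membrane gene, was lowest in WT replicate 1, and *Ncf1*, a subunit of the phagocyte oxidase, was highest in TfR1 cko replicate 1. Here too 0 of the 31 were called by genotype in either direction at either p, beside the shares of all genes tested given above. The median log2 fold change of the 31 was 0.33.

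The 10 genes of no list with the largest lower ratio were *C6*, *Slco2b1*, *Cadm1*, *P2ry13*, *Slpi*, *Hfe*, *Tgfbi*, *Tmem26*, *Gfra2* and *Slc45a3*, a likeness measured over the 4 libraries. *Hfe*, which encodes the hemochromatosis protein, had 9.91, 0.0937, 0 and 38.6 CPM. *C6*, a component of the terminal complement complex, had 11.5, 0, 0.0576 and 46.7 CPM. All 10 had under 1.5 CPM in both libraries of the lower pair.

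Markers of other cell types were summed in the same libraries. The 16 macrophage markers, all of them members, summed to 1230, 93.6, 68.9 and 3786 CPM. The 8 erythroid markers found summed to 32.8, 172, 66.3 and 493 CPM and took another order, with WT replicate 1 lowest, although TfR1 cko replicate 2 was again highest. The 4 marginal zone and metallophilic macrophage markers stood at 1.88, 1.03, 1.10 and 13.9 CPM, and *Marco* made up most of this. Neutrophil markers stood at 0.0819 to 2.99 CPM, with 5 of 8 (*S100a8*, *S100a9*, *Ly6g*, *Camp* and *Retnlg*) at 0 in all 4 libraries. NK cell markers took the order of the members, but only from 2.72 to 8.83 CPM. CD8 T cell (11.1 to 12.6 CPM), platelet (1.88 to 3.37 CPM) and B cell markers (25.5 to 42.5 CPM) took other orders. The part of erythroid and NK cell RNA in the macrophage values was not tested.

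**Figure D4:**
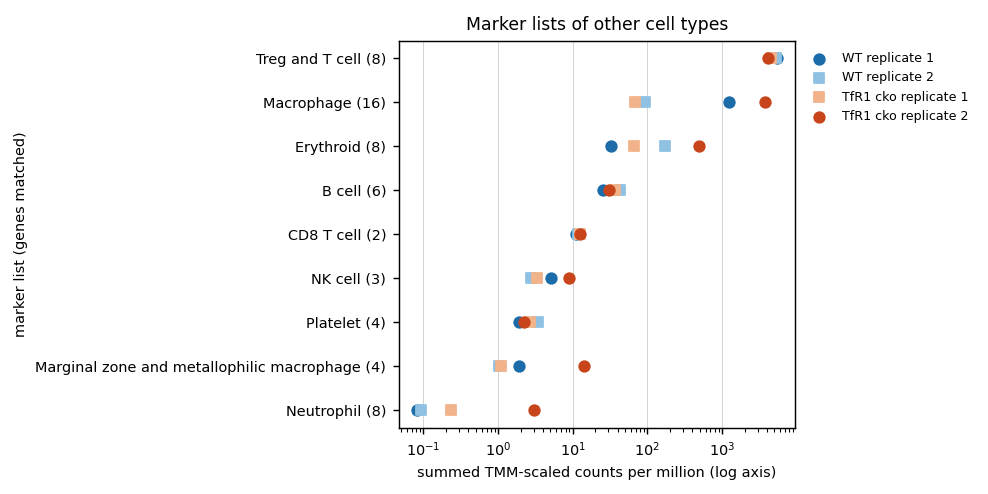
Summed TMM-scaled CPM of marker lists (log axis), with 1 point per library and the number of genes found in brackets. The macrophage markers run from 68.9 to 3786 CPM and the erythroid markers from 32.8 to 493 CPM, while the Treg and T cell markers lie between 4104 and 5439 CPM in all 4 libraries.

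The genotype comparison asks whether loss of TfR1 in Treg cells came with a change of these transcripts. With 2 libraries a genotype and the high library of each genotype in the fit, edgeR's quasi-likelihood test called 0 of 39 members in either direction (adjusted p under 0.05, log2 fold change of 0.5 or more in size), beside 0% of all genes tested. At an unadjusted p of 0.05 the members were 0 of 39 as well, against 1.6% of genes tested called higher and 2.48% called lower. DESeq2 called 0 members at the adjusted p, beside 0.0502% of 11960 genes higher and 0.234% lower, and 1 member, *Marco*, at the unadjusted p, beside 0.979% of genes called higher. In no member did both TfR1 cko libraries lie above both WT libraries, which 16% of genes tested did, or both below, which 18.9% did. For the members this was fixed by their choice, since a library of each genotype held most of their RNA. It therefore carries no test of genotype.

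All 39 fitted log2 fold changes were above 0, from 0.09 for *Ctsd* to 2.39 for *Fcna*, with a median of 1.67 against 0.01 over all genes tested. Their standard errors, 0.22 to 2.35, were as large as the changes themselves for most members, and adjusted p ran from 0.914 to 0.989. *Slc40a1* had 109 ± 139 CPM in WT and 280 ± 379 CPM in TfR1 cko (mean ± SD, n = 2), a log2 fold change of 1.36 (SE 1.86). The log2 fold change was 2.13 (SE 1.98) for *Spic*, 1.62 (SE 2.35) for *Vcam1*, 1.58 (SE 2.12) for *Csf1r* and 2.01 (SE 1.95) for *C1qb*. *Marco*, for which TfR1 cko replicate 2 stood alone, had 2.28 (SE 1.20), and *Hmox1* had 0.86 (SE 1.81).

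The direction rested on TfR1 cko replicate 2. Without it 38 of the 39 changes turned negative, with a median of -3.05, and without WT replicate 1 the median was 5.07. Without WT replicate 2 the median was 0.78 and without TfR1 cko replicate 1 it was 2.69, and 0 members were called at the adjusted p in any of these 4 fits. At the unadjusted p, 21 members passed as higher without TfR1 cko replicate 1 (2.67% of genes) and 10 as lower without TfR1 cko replicate 2 (2.5%). With no filter on low counts, the same test called 28 members higher and 0 lower, beside 0.747% and 0.425% of 22368 genes. The absence of calls thus did not hold without a count filter. The genotypes overlapped in every member, as stated above. Since the members were chosen by their counts in these libraries, the 28 calls carry no test of genotype. A block that set WT replicate 1 beside TfR1 cko replicate 2 was chosen after seeing the data. It called 19 members higher and 0 lower, beside 1.2% and 1.68% of genes. The block grouped the libraries as the choice of members did, so its member calls are descriptions and carry no test.

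**Figure D5:**
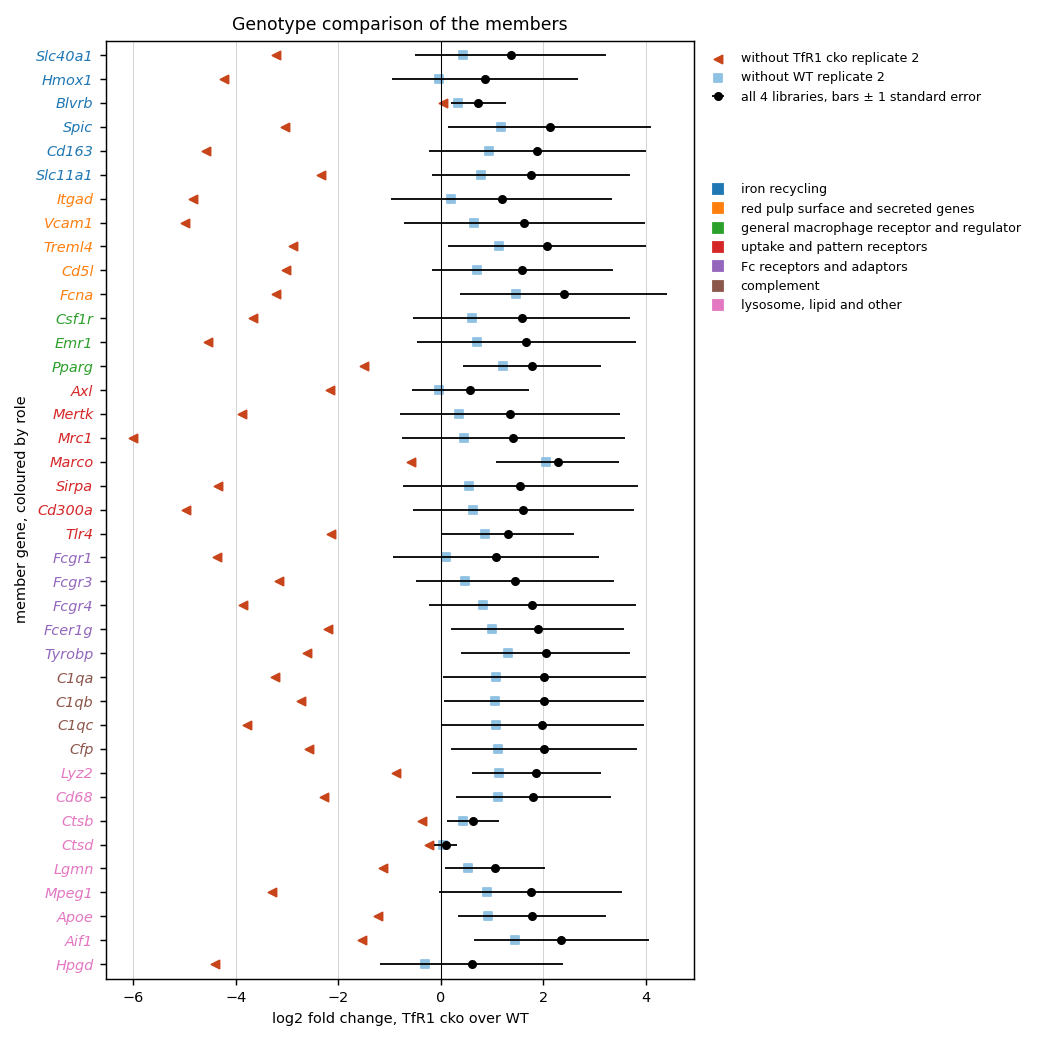
Log2 fold change of each member, TfR1 cko over WT, fitted by edgeR on all 4 libraries (black points, bars of 1 standard error), without TfR1 cko replicate 2 (red triangles) and without WT replicate 2 (pale squares). All black points lie above 0, and 38 of the 39 triangles lie below it.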

How the data were processed

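Bulk RNA-seq of sorted Treg cells from 4 libraries, 2 WT and 2 TfR1 cko, was analysed, with groups and replicate numbers taken from the sample titles. The table the authors deposited holds raw counts of reads on each Ensembl gene, 1 column per library. The submitters' processing notes name Trim Galore 0.6.7, STAR 2.7.9a, featureCounts and the build mm10, while the methods name STAR and mm9. Strand, annotation release and the treatment of multimapping reads are not given in the sources used here. Without strand, reads of a gene and of an antisense partner cannot be told apart.

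Symbols were found for 32799 of the 47729 identifiers through GENCODE vM1 (NCBIM37) and RefSeq synonyms (GRCm38.p6), and identifiers without a symbol held 0.907% of counts. Gene positions and exon lengths are those of GENCODE vM1, and promoter windows those of RefSeq. All rows name a gene.

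After filterByExpr and TMM scaling, edgeR 4.0.16 (R 4.3.3) fitted genotype as the only term, and its quasi-likelihood test (two-sided) was adjusted by Benjamini-Hochberg over all genes tested. Calls needed an adjusted p under 0.05 and a log2 fold change of 0.5 or more in size. A standard error is the log2 fold change divided by the root of F. Log2 ratios between libraries use a prior count of 2, folds between single libraries carry exact binomial 95% intervals, and a fold against a library with no count was set at the floor of 3 counts per library. The alternatives were DESeq2 1.42.0, other scaling factors, count filters and minimum changes, a replicate block and the omission of each library.

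Totals were 12365708 and 10841939 counts for WT and 17278448 and 13454577 for TfR1 cko. Replicates differed far beyond counting noise (chi-square per degree of freedom 29.3 and 45.7), so spread between libraries limits precision. The members, roles and lists were chosen with earlier results of these data known. The genes named were all members by role, the 3 largest and 2 smallest by the lower within-genotype ratio of the lists of other iron handling and other macrophage genes, and the 10 genes of no list with the largest such ratio, with *Tfrc* and *Foxp3* for the labels. *Mki67*, *Stab2* and other single markers were named after their values were seen. Markers of dendritic cells and stroma were summed like those in the report, and 1 further marker list is not reported here. Reads and exon-level counts were not used here.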

Additional observations from a re-analysis of the deposited data

How the results depend on the processing

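The member counts called at the adjusted p stayed at 0 in either direction with scaling by DESeq2 size factors or by total counts, with 10 counts required in every library (24 members left), with no minimum change, a minimum log2 fold change of 1, DESeq2's Wald test and the omission of each library. With no count filter 28 members were higher, among 167 genes higher and 95 lower, and the cause was not tested. Because of how the members were chosen, these member calls carry no test of genotype. DESeq2's Wald test called 6 genes higher and 28 lower, none of them members. At the unadjusted p it called 1 member, *Marco*.

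The values showed no pairing by replicate number, since deviations of same-numbered libraries correlated at -0.609. Whether same-numbered libraries shared a sort or preparation was not tested. With the replicate block 0 members and 0 genes were called, the median log2 fold change of the members was 0.76, and 3 members turned negative, *Hmox1* (-0.13), *Axl* and *Hpgd* (-0.12 each). With the crossed pairing as a block, added after seeing the data, 19 members and 150 genes were called higher and 210 genes lower. In that fit 1 member, *Axl*, turned negative. The crossed block grouped the libraries as the choice of members did, so its member calls carry no test. The other scalings, count filters and DESeq2's Wald test turned no member's direction. Over the 4 omissions the members' median ranged from -3.05 to 5.07, with *Slc40a1* from -3.23 to 4.79, *Hmox1* from -4.23 to 3.76, *Spic* from -3.05 to 6.04, *Vcam1* from -4.99 to 6.93, *Fcna* from -3.21 to 5.84, *Csf1r* from -3.67 to 6.60, *Marco* from -0.59 to 3.21, *C1qb* from -2.74 to 5.95 and *Ctsd* from -0.23 to 0.39. *Hmox1* (-0.04), *Axl* (-0.03) and *Hpgd* (-0.31) were also negative without WT replicate 2.

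With 2 libraries a genotype and members near the floor in the lower pair, WT replicate 2 and TfR1 cko replicate 1, depth limits the ratios of the rarest members. Summed member CPM kept the same order of libraries with either other scaling.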

Other observations

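Markers of cell types that lie near macrophages in lineage or place gave further values. Stroma and endothelium markers summed to 315, 306, 298 and 341 CPM in WT replicates 1 and 2 and TfR1 cko replicates 1 and 2, nearly all of it *Pecam1*, while *Kdr* was at 0 in all 4 libraries. *Stab2*, a scavenger receptor of sinusoidal endothelium, had 6.30, 0.375, 0.231 and 28.5 CPM, and so took the order of the macrophage genes. Conventional dendritic cell markers summed to 63.3, 54.2, 23.9 and 21.2 CPM, with *Clec10a* at 0 throughout. Of this sum *Itgae* was 59.1, 47.1, 18.3 and 10.6 CPM. *Itgae* encodes CD103, which the paper lists among the most suppressed effector molecules of TfR1-deficient Treg cells. The sum can therefore not be read as dendritic cell RNA. Plasmacytoid dendritic cell markers summed to 82.9, 75.9, 87.7 and 89.7 CPM.

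Within the erythroid markers, 6 of the 8 found followed the order of their sum (TfR1 cko replicate 2, WT replicate 2, TfR1 cko replicate 1, WT replicate 1), with *Hba-a1* at 9.91, 62.1, 23.2 and 163 CPM and *Alas2*, the erythroid enzyme that opens heme synthesis, at 0.246, 4.41, 1.27 and 12.5 CPM. *Klf1*, an erythroid transcription factor, was higher in TfR1 cko replicate 1 than in WT replicate 2, with 0.0819, 0.375, 0.634 and 1.68 CPM. *Epor*, the erythropoietin receptor, took the order of the macrophage genes instead, with 2.13, 0.0937, 0.634 and 6.50 CPM.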
